A study of Mus musculus with 20 samples.

Results

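The RNA-binding proteins that steer alternative splicing and messenger RNA fate were examined in whole brains of Hdac4KO and WT mice at postnatal day 3. They were taken by symbol: every probe set that the array's platform annotation assigns to 1 gene whose symbol starts with Srsf, Hnrnp, Rbfox, Nova, Elavl, Celf, Mbnl or Ptbp. This gave 160 of the 45037 probe sets tested, standing for 50 of the 18193 genes that the annotation names singly. Another 7 probe sets name Hnrnpa1 or Hnrnpa3 together with other genes and were left out. The Hdac4KO brains came from homozygotes of a knock-out colony and the WT brains from littermates, on the B6CBAF1/OlaHsd background, untreated. There were 10 arrays per genotype, with 5 males and 5 females in each by the labels. All values are log2 signals, 1 per probe set and array, and every difference is Hdac4KO minus WT. The labels do not say which pups shared a litter, so litter could not be modelled. The p-values treat the arrays as independent and set each difference against the spread between them.

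SR proteins (Srsf genes) bind exonic enhancers and help the spliceosome to define exons, and the heterogeneous nuclear ribonucleoproteins (Hnrnp genes) coat nascent RNA and often act against them. Rbfox, Nova, Elavl, Celf, Mbnl and Ptbp proteins bind short motifs in and around alternative exons and in untranslated regions, and set much of the exon choice of developing neurons. HDAC4 belongs to the class IIa histone deacetylases and holds MEF2 transcription factors in check. The study asked whether its loss changes protein acetylation or transcription in the neonatal brain. It found little evidence that acetylation changed.

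The genotype labels were checked first. The 2 brightest Hdac4 probe sets averaged 6.58 ± 0.31 and 6.53 ± 0.36 in Hdac4KO brains, against 7.76 ± 0.17 and 7.92 ± 0.16 in WT brains (SD, n = 10 each), which is a log2 fold change of -1.19 and -1.39. The third, dimmer probe set differed by -0.47 (limma adjusted p = 0.0198). Hdac4KO replicate 10 stood apart with the highest Hdac4 signals of its genotype, 7.35 and 7.43, and the lowest WT array, replicate 8, had 7.36 and 7.54. In 3 arrays the Xist signal ran against the labelled sex (Hdac4KO replicate 10, WT replicates 5 and 9). Hdac4KO replicate 10, labelled male, had a mean Xist signal of 10.8. It also had 6.88 at the brightest probe set of the Y-linked gene Kdm5d, which ran from 2.82 to 8.16 in Hdac4KO brains. Its dimmer Kdm5d probe sets, at most 3.72 and 4.13 in any Hdac4KO array, were at 3.31 and 3.41. Why it carried both signals was not tested. The calls between genotypes are also given below without the 3 arrays against their sex label, and without Hdac4KO replicate 10 and WT replicate 8. The 9 neuron markers were all above the array median, none of the 3 liver genes was, and array medians lay between 6.26 and 6.32.

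Few of these regulators differed between the genotypes. Of the 160 probe sets, 2 rose and 3 fell in Hdac4KO brains at a limma adjusted p under 0.05 over all probe sets, beside 1.05% (higher) and 1.01% (lower) of all probe sets tested. Of the members, 1.25% rose and 1.88% fell, close to that background. Above the array median, 1.44% of the 139 members rose and 1.44% fell, beside 1.78% and 1.38% of all probe sets there. Both probe sets that rose belong to Celf2, and those that fell belong to Srsf6, Hnrnpu and Ptbp3. The study did not name these genes among those it measured by quantitative PCR (qPCR). Of the genes lowered on the arrays that it did measure, qPCR found only Calml4 lower, and several were slightly higher. At an unadjusted p under 0.05 the members counted 16 higher and 21 lower of the 160, beside 9.93% and 8.10% of all probe sets.

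Differences were small throughout. The median log2 fold change was -0.02 over the 160 probe sets and 0.00353 over all probe sets, and the linear signal differed by less than 20% in 159 of the 160. With a cut equal on both sides in log2 units (that of a 20% rise), 155 of the 160 lay within it. So did 44001 of all 45037 probe sets, so small differences were the rule on the array. The sign was negative in 92 of the 160, or 57.5%, against 48.1% of all probe sets. Above the array median it was negative in 58.3% of members, against 42.6% of all probe sets. At the brightest probe set of each gene it was negative in 27 of the 50, or 54.0%. The share also differed by probe set type, as given below. The Hdac4KO and WT arrays overlapped in all 160, and 0.0777% of all probe sets had groups that did not. Standard errors of the log2 fold change ran between 0.024 and 0.17, with a median of 0.043.

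**Figure D1:**
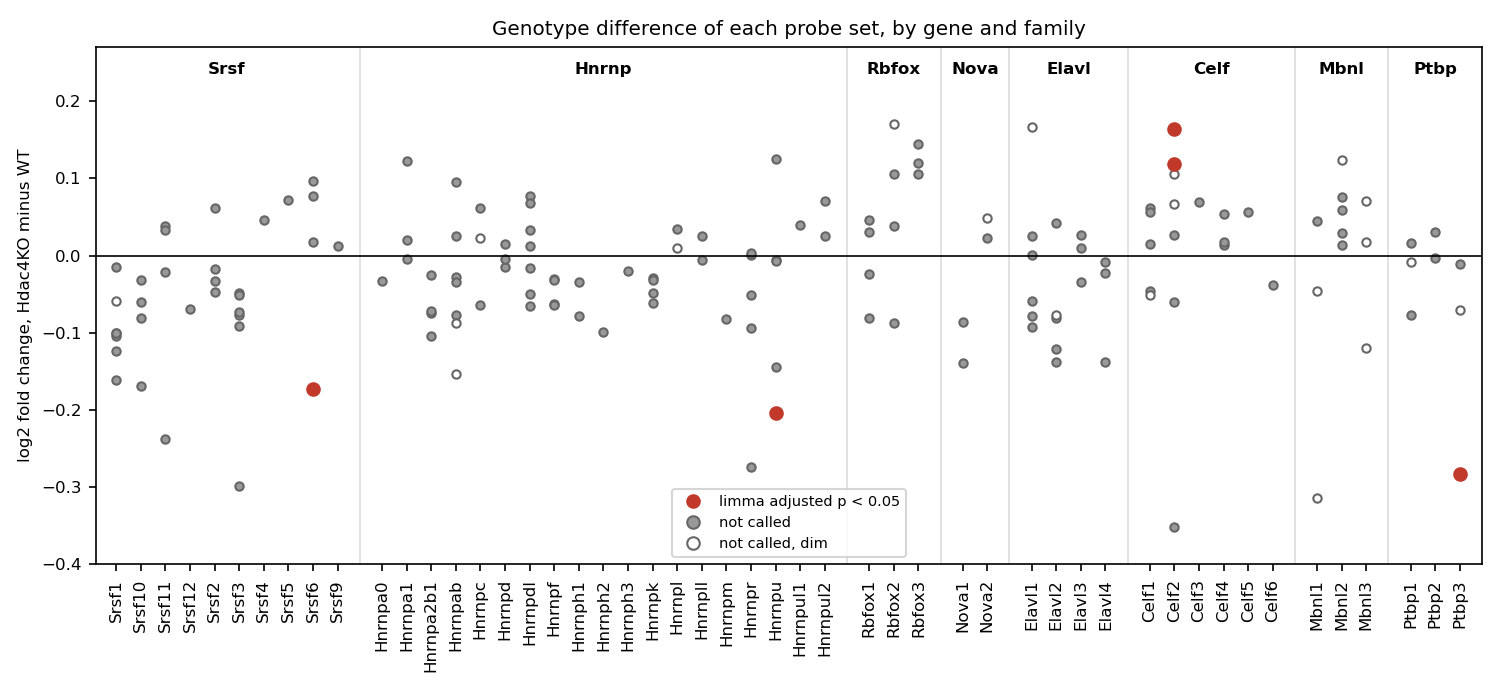
Log2 fold change (Hdac4KO minus WT) of the 160 probe sets, 1 point each, by gene along the horizontal axis and grouped by family. Red points are the 5 called probe sets and grey points are not called. Open points are not called and dim (not above the array median on at least 10 arrays). The Srsf, Hnrnp, Elavl and Ptbp points lie mostly below 0, and the Rbfox, Celf and Mbnl points mostly above.

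Among SR proteins, 24 of 33 probe sets were below 0 with a median of -0.05, and 1 probe set of Srsf6 fell. Srsf6 (SRp55) is an exon-defining SR protein. Its probe set 1448454_at ran from 10.63 through a median of 10.83 to 10.93 in Hdac4KO brains, against 10.87, 11.00 and 11.06 in WT brains. All 10 Hdac4KO arrays lay below the WT mean, and the ranges overlapped between 10.87 and 10.93. The log2 fold change was -0.17 ± 0.037 (SE, n = 10 each; limma adjusted p = 0.0212), a change of -11.3% in linear signal.

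The other 3 Srsf6 probe sets did not fall. The brightest, 1416721_s_at, averaged 11.37 ± 0.081 in Hdac4KO brains and 11.27 ± 0.040 in WT brains (SD, n = 10 each), a difference of 0.10 with a limma adjusted p of 0.114. Probe set 1416720_at differed by 0.08 (adjusted p = 0.173) and 1447898_s_at by 0.02 (adjusted p = 0.886). So the one called Srsf6 probe set stood against 3 that were above 0.

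Srsf1 and Srsf3 were below 0 in every probe set without any of them being called. Srsf1 (SF2/ASF) is the prototype SR protein, and its 7 log2 fold changes lay between -0.16 and -0.02, 4 of them with an unadjusted p under 0.05. The lowest adjusted p among them was 0.0548, at 1430982_at, where Hdac4KO brains averaged 10.66 ± 0.12 and WT brains 10.82 ± 0.061 (SD, n = 10 each). Srsf3 (SRp20), the smallest SR protein, had 6 of 6 probe sets below 0, down to -0.30 at 1438215_at (adjusted p = 0.0715), which averaged 7.03 ± 0.19 in Hdac4KO brains and 7.33 ± 0.23 in WT brains. Probe sets of 1 gene share their RNA, so 7 or 6 of the same sign are not 7 or 6 results.

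By array, the mean of the 7 Srsf1 probe sets, taken relative to the WT mean, ran from -0.23 to 0.02 in Hdac4KO brains, against -0.07 to 0.04 in WT brains. The mean of the 6 Srsf3 probe sets ran from -0.27 to -0.01 in Hdac4KO brains, against -0.12 to 0.07 in WT brains. Of the 10 Hdac4KO arrays, 5 lay below the lowest WT array for Srsf1 (replicates 5, 6, 7, 8 and 10). For Srsf3 3 did (replicates 5, 7 and 8). WT replicate 9 was the lowest WT array for both.

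Other SR proteins gave no calls. The brightest probe sets of Srsf5 and Srsf4 differed by 0.07 (adjusted p = 0.270) and 0.05 (adjusted p = 0.460), and that of Srsf10, a splicing repressor related to SR proteins, by -0.08 (adjusted p = 0.434). The brightest Srsf1 and Srsf3 probe sets differed by -0.12 (adjusted p = 0.240) and -0.08 (adjusted p = 0.288).

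The promoter sequences of Srsf3, Srsf6 and Hnrnpu are given because HDAC4 can repress through MEF2, whose consensus could be searched in them. The study itself detected no change in MEF2-dependent transcripts on its arrays, and found HDAC4 in the cytoplasm of the neonatal brain. RefSeq promoters (250 bases before to 50 after the start, GRCm38.p6) were found for 45 of the 50 genes. The MEF2 consensus, which reads the same on both strands, was in 0.557% of all 32851 promoters and in 1 of the 82 of these genes, that of Srsf3. The letters it matches there overlap a TATA-box-like run. The GC box GGGCGG, on either strand, was in 35.7% of all promoters and 64.6% of these. Capitals mark the MEF2 match in Srsf3, which ends 10 bases before the start, and the GC boxes in Srsf6 and Hnrnpu.
Srsf3 promoter, chr17:29032410-29032709, + strand: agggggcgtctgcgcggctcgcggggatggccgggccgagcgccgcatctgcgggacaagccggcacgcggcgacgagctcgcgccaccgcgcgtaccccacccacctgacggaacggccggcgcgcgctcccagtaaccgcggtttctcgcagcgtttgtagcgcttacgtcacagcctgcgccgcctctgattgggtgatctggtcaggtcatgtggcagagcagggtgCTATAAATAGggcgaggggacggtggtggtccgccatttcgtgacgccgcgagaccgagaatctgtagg
Srsf6 promoter, chr2:162931258-162931557, + strand: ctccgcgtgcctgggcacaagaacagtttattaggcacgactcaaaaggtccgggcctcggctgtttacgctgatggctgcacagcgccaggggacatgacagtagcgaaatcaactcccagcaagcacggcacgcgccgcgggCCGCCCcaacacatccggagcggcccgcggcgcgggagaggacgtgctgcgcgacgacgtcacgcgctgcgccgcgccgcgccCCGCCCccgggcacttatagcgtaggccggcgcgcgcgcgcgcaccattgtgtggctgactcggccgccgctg
Hnrnpu promoter, chr1:178337766-178338065, - strand: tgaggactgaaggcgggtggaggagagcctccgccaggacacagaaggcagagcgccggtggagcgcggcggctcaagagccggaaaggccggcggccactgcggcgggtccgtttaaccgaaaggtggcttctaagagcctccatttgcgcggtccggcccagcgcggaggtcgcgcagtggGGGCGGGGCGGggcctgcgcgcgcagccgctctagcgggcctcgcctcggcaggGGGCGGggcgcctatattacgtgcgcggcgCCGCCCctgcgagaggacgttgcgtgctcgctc
A match in these letters is a description of the sequence, and no binding was measured here.

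The Hnrnp family, with 58 probe sets of 19 genes, had 38 below 0 and a median of -0.03. Hnrnpu (SAF-A) is a nuclear matrix protein that binds RNA and DNA. Its probe set 1450849_at was the 1 called member of the family, at 10.09, 10.30 and 10.40 (lowest, median, highest) in Hdac4KO brains, against 10.21, 10.52 and 10.60 in WT brains. All 10 Hdac4KO arrays lay below the WT mean. The difference was -0.20 ± 0.051 (SE; limma adjusted p = 0.0397).

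The 2 brightest Hnrnpu probe sets, 1423050_s_at and 1423051_at, differed by -0.01 each (adjusted p = 0.952 and 0.938), and their signs changed under some alternatives. Probe set 1434391_at differed by -0.14 (adjusted p = 0.340), and 1434390_at by 0.13 (adjusted p = 0.214). Hnrnpu is the only member gene on chromosome 1, which also carries Hdac4, with 550 protein-coding genes between them.

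Hnrnpr, which binds mRNA in axons, had 1 probe set well below 0 and 4 near it. Probe set 1452030_a_at averaged 9.22 ± 0.21 in Hdac4KO brains and 9.49 ± 0.15 in WT brains (SD, n = 10 each), a difference of -0.27 with an adjusted p of 0.0651. It passed the threshold under 6 of the 31 alternatives. The remaining Hnrnpr probe sets differed by between -0.09 and 0.0031, with adjusted p of at least 0.545.

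At their brightest probe sets the other Hnrnp genes differed by little. Hnrnpa2b1, which sorts RNA into neurites, differed by -0.07 at its brightest probe set (adjusted p = 0.231), Hnrnpc by -0.06 (0.268) and Hnrnph2 by -0.10 (0.231). Hnrnpul2 and Hnrnpdl were on the other side, at 0.07 (0.118) and 0.08 (0.122), and Hnrnpl at 0.03 (0.479). Genes with 3 or more probe sets lay wholly below 0 in 8 cases and wholly above 0 in 3, over all families.

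Rbfox proteins bind the GCAUG motif beside exons that change during neuronal maturation. None of their 11 probe sets was called, and 8 were above 0. Rbfox3 is NeuN, the standard nuclear marker of neurons. Its brightest probe set, 1436450_at, was 11.67, 11.83 and 11.95 (lowest, median, highest) in Hdac4KO brains, against 11.61, 11.66 and 11.85 in WT brains. The groups overlapped, and 5 Hdac4KO arrays lay above the highest WT array.

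All 3 Rbfox3 probe sets were above 0, between 0.11 and 0.14, with adjusted p from 0.154 to 0.164, and each had an unadjusted p under 0.05. Their mean, relative to WT, ran from -0.04 to 0.28 in Hdac4KO arrays, against -0.11 to 0.13 in WT arrays. Hdac4KO replicates 5, 6, 7, 8 and 10 lay above the highest WT array. These are the arrays that lay below the lowest WT array for Srsf1. Why they went together was not tested. In bulk tissue fewer or more neurons and less or more RNA per neuron cannot be told apart. Of the 9 neuron markers, Rbfox3 among them, none was called at its brightest probe set, and their median log2 fold change was -0.00127. Syt1, a synaptic vesicle protein, and Rbfox3 had an unadjusted p under 0.05 there, both above 0 (Syt1 0.145, adjusted p = 0.0504). Of all 23 probe sets of the neuron markers, 1 was called, a dimmer Syt1 probe set (1431191_a_at). It averaged 8.36 ± 0.24 in Hdac4KO brains and 8.74 ± 0.18 in WT brains, a fall of 0.38 on the log2 scale (limma adjusted p = 0.0310). The study's qPCR found no change of Syt1 between the genotypes.

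Rbfox1 and Rbfox2 did not pass. Rbfox1 (1455358_at) was 11.69, 11.74 and 11.81 in Hdac4KO brains, against 11.62, 11.69 and 11.83 in WT brains, a difference of 0.05 (adjusted p = 0.449). Rbfox2 (1418245_a_at) was 9.39, 9.94 and 10.34 in Hdac4KO brains, against 9.76, 9.97 and 10.37 in WT brains, a difference of -0.09 (adjusted p = 0.654). A dim Rbfox2 probe set, 1418246_at, had the largest positive difference among members not called, 0.17 (adjusted p = 0.193). Both genotypes overlapped at each of these probe sets.

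Nova1 and Nova2, the neuronal KH-domain splicing regulators, gave no calls. Nova1 (1426938_at) was 9.77, 10.08 and 10.22 in Hdac4KO brains, against 9.89, 10.13 and 10.24 in WT brains, a difference of -0.09 (adjusted p = 0.410). Nova2 (1439192_at) was 9.25, 9.43 and 9.53 in Hdac4KO brains, against 9.31, 9.42 and 9.52 in WT brains, a difference of 0.02 (adjusted p = 0.790). Both Nova1 probe sets were below 0 and both Nova2 probe sets above it.

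Elavl2, Elavl3 and Elavl4 encode the neuronal Hu proteins, which stabilise AU-rich messages, while Elavl1 (HuR) is made in most cells. Elavl2 (1421883_at) was 12.11, 12.28 and 12.40 in Hdac4KO brains, against 12.13, 12.23 and 12.37 in WT brains. Elavl3 (1435871_at) was 11.23, 11.27 and 11.38 in Hdac4KO brains, against 11.20, 11.25 and 11.34 in WT brains. Elavl4 (1452894_at) was 11.28, 11.40 and 11.50 in Hdac4KO brains, against 11.33, 11.41 and 11.49 in WT brains. Adjusted p for these 3 were 0.612, 0.661 and 0.770, and the 2 genotypes covered nearly the same range in each. Elavl1 (1452858_at) differed by 0.00124 (adjusted p = 0.991). None of the dimmer probe sets of these genes was called. The other 4 Elavl2 probe sets were below 0, down to -0.14, and so were all 3 of Elavl4, where 1428741_at averaged 11.11 ± 0.15 in Hdac4KO brains and 11.25 ± 0.12 in WT brains (limma adjusted p = 0.202). Elavl1 1440464_at, below the array median, averaged 6.25 ± 0.14 in Hdac4KO brains and 6.09 ± 0.11 in WT brains, a difference of 0.17 (limma adjusted p = 0.111).

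Celf proteins bind GU-rich sequence and shift splicing and decay. Celf2, abundant in forebrain neurons, rose at 2 of its 7 probe sets. Probe set 1423895_a_at was 12.41, 12.49 and 12.59 in Hdac4KO brains, against 12.30, 12.39 and 12.47 in WT brains, a rise of 0.12 ± 0.030 (SE; limma adjusted p = 0.0425) or 8.59%. Probe set 1439777_at was 11.31, 11.40 and 11.61 in Hdac4KO brains, against 11.08, 11.26 and 11.41 in WT brains, a rise of 0.16 ± 0.042 (adjusted p = 0.0427) or 12.1%. In both, every Hdac4KO array exceeded the WT mean, with 8 and 4 above the highest WT array.

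Of the other 5 Celf2 probe sets, 3 were above 0 and 2 below. The 2 with bright signals, 1450069_a_at and 1451154_a_at, differed by 0.03 (adjusted p = 0.769) and -0.06 (0.571). Probe set 1444152_at had the largest negative difference of all members not called, -0.35 ± 0.17 (SE; adjusted p = 0.279), with the widest spread among arrays. Celf1, Celf3, Celf4, Celf5 and Celf6 differed by -0.05, 0.07, 0.01, 0.06 and -0.04 at their brightest probe sets, none called.

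Mbnl proteins, whose sequestration underlies myotonic dystrophy, often act against Celf proteins. Mbnl1, Mbnl2 and Mbnl3 differed by 0.04, 0.06 and 0.07 at their brightest probe sets, with adjusted p of 0.453, 0.482 and 0.618. The other 2 Mbnl1 probe sets were below 0, and the dim 1440315_at averaged 4.67 ± 0.28 in Hdac4KO brains and 4.99 ± 0.33 in WT brains, a difference of -0.31 (adjusted p = 0.183, unadjusted p = 0.0205 in limma). All 5 Mbnl2 probe sets were above 0. No Mbnl3 probe set was above the array median.

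Ptbp1 (PTB) represses neuronal exons in progenitors and Ptbp2 (nPTB) takes its place in young neurons. Ptbp1 (1424874_a_at) was 9.43, 9.57 and 9.69 in Hdac4KO brains, against 9.40, 9.58 and 9.63 in WT brains. Ptbp2 (1423470_at) was 11.74, 11.90 and 11.99 in Hdac4KO brains, against 11.80, 11.89 and 11.95 in WT brains. Their differences were 0.02 (adjusted p = 0.889) and -0.0032 (adjusted p = 0.976), each within the spread of the arrays.

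Ptbp3, the third PTB paralog, fell at probe set 1424084_at, which was 3.57, 3.78 and 3.99 in Hdac4KO brains, against 3.74, 4.09 and 4.26 in WT brains. The fall was -0.28 ± 0.062 (SE; limma adjusted p = 0.0234), and all 10 Hdac4KO arrays lay below the WT mean. These signals are low: the probe set was below the array median. The bright Ptbp3 probe set, 1455819_at, differed by -0.01 (adjusted p = 0.885) and 1424083_at by -0.07 (0.612).

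**Figure D2:**
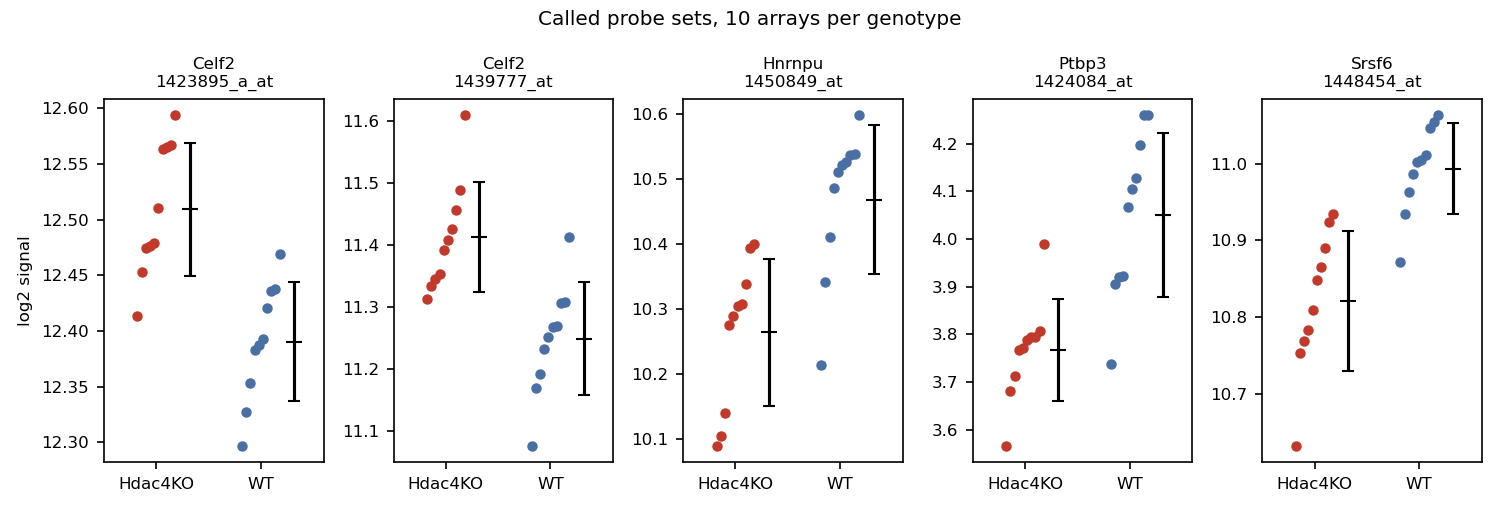
Log2 signal of the 5 called probe sets, 1 point per array, Hdac4KO left and WT right, with mean ± SD (n = 10 each) beside the points and arrays drawn in rising order. In each panel the 2 groups overlap.

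The 5 calls depended on the settings. With a covariate for the 3′ to 5′ balance of control transcripts (actin, Gapdh), none of them passed (adjusted p = 0.161 and 0.142 for Celf2, 0.0802 for Srsf6, 0.137 for Hnrnpu and 0.116 for Ptbp3). The log2 fold changes in that fit were 0.10 and 0.16 for Celf2, -0.18 for Srsf6, -0.19 for Hnrnpu and -0.24 for Ptbp3, each in the direction of the fit without the covariate. Over all probe sets the same fit left 23 higher and 20 lower. The mean 3′ minus 5′ signal was 0.216 ± 0.030 in Hdac4KO brains and 0.191 ± 0.031 in WT brains (SD, n = 10 each; two-sided permutation test p = 0.0818), and its part in the calls was not tested further. By transcript, it was 0.520 ± 0.045 in Hdac4KO brains and 0.480 ± 0.039 in WT brains for actin (p = 0.0475 by the same permutation test), and -0.089 ± 0.031 in Hdac4KO brains and -0.0989 ± 0.031 in WT brains for Gapdh (permutation p = 0.476). Without Hdac4KO replicate 10 and WT replicate 8, the adjusted p were 0.0598 and 0.0850 for Celf2 and 0.101 for Hnrnpu, and without the 3 arrays against their sex label 0.0727 and 0.0924 for Celf2. The Srsf6 and Ptbp3 calls held in both cases.

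Leaving out 1 array at a time, the Srsf6 and Ptbp3 calls passed in 20 of 20 cases. Celf2 1423895_a_at passed in 4 of 20, those without WT replicate 10 and without Hdac4KO replicates 2, 4 or 10, and each of the other 16 arrays ended its call (adjusted p up to 0.0823). Celf2 1439777_at passed in 6, those without WT replicates 1 or 9 and without Hdac4KO replicates 1, 2, 4 or 9, and the other 14 ended its call (up to 0.0799). Hnrnpu 1450849_at passed in 7, those without WT replicates 9 or 10 and without Hdac4KO replicates 1, 2, 3, 4 or 6, and the other 13 ended its call (up to 0.0788).

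To find where probe sets of 1 gene disagree, each probe set was set against the mean of the gene's other probe sets on the same array, and that difference was compared between genotypes. Of the 38 genes with more than 1 probe set, 5 disagreed (limma adjusted p under 0.05 over all such probe sets): Srsf6, Hnrnpu, Hnrnpr, Ptbp3 and Celf2. Among all genes with several probe sets, 7.86% did. The 38 genes carry more probe sets each (148 in all) than those genes do (25762 for 9010), which gives each gene more chances to disagree. Of the 148 probe sets of the 38 genes, 6 differed from the others of their gene, all of them in these 5 genes. That is close to the share of all probe sets so tested, 4.13%.

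For Srsf6 the probe set apart was the one called above. Relative to the gene's other 3 probe sets, 1448454_at was -0.12, 0.21 and 0.40 (lowest, median, highest) in Hdac4KO brains, against 0.33, 0.46 and 0.50 in WT brains. Of the Hdac4KO arrays, 9 lay below the lowest WT array. The change was -0.24 ± 0.049 (SE; limma adjusted p = 0.0134), with the probe set falling while the others were above 0.

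Hnrnpu had 2 probe sets whose differences from the gene's others changed in opposite directions. Each is among the 4 that the other is set against, so the 2 results are not independent. Taken alone, 1434390_at was not called (0.13, limma adjusted p = 0.214). Relative to its other 4 probe sets, 1450849_at was -0.10, 0.05 and 0.15 in Hdac4KO brains, against 0.09, 0.22 and 0.33 in WT brains, and changed by -0.20 ± 0.038 (SE; adjusted p = 0.0097). Probe set 1434390_at was -2.45, -2.31 and -2.13 in Hdac4KO brains, against -2.60, -2.52 and -2.43 in WT brains, and changed by 0.22 ± 0.040 (adjusted p = 0.0078). In each, 8 Hdac4KO arrays lay outside the WT range. These 2 were the ones that still passed with the 3′ to 5′ covariate (adjusted p = 0.0455 and 0.0469), where Srsf6 1448454_at had 0.0532.

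Ptbp3 (1424084_at) changed by -0.24 ± 0.057 relative to its other probe sets (adjusted p = 0.0222), with 7 Hdac4KO arrays below the lowest WT array. Hnrnpr (1452030_a_at) changed by -0.24 ± 0.059 (adjusted p = 0.0272), with 8 below. Celf2 (1439777_at) changed by 0.18 ± 0.050 (adjusted p = 0.0458), with 5 Hdac4KO arrays above the highest WT array. Without Hdac4KO replicate 10 and WT replicate 8, the adjusted p were 0.116 for Celf2 and 0.0565 for Hnrnpr, and the other 4 probe sets passed. Leaving out 1 array ended the Celf2 result in 14 of 20 cases (adjusted p up to 0.0784), all but those without Hdac4KO replicates 1 to 4 and WT replicates 1 and 10, and the Hnrnpr result without WT replicate 2 and without Hdac4KO replicates 8 or 9 (up to 0.0529).

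**Figure D3:**
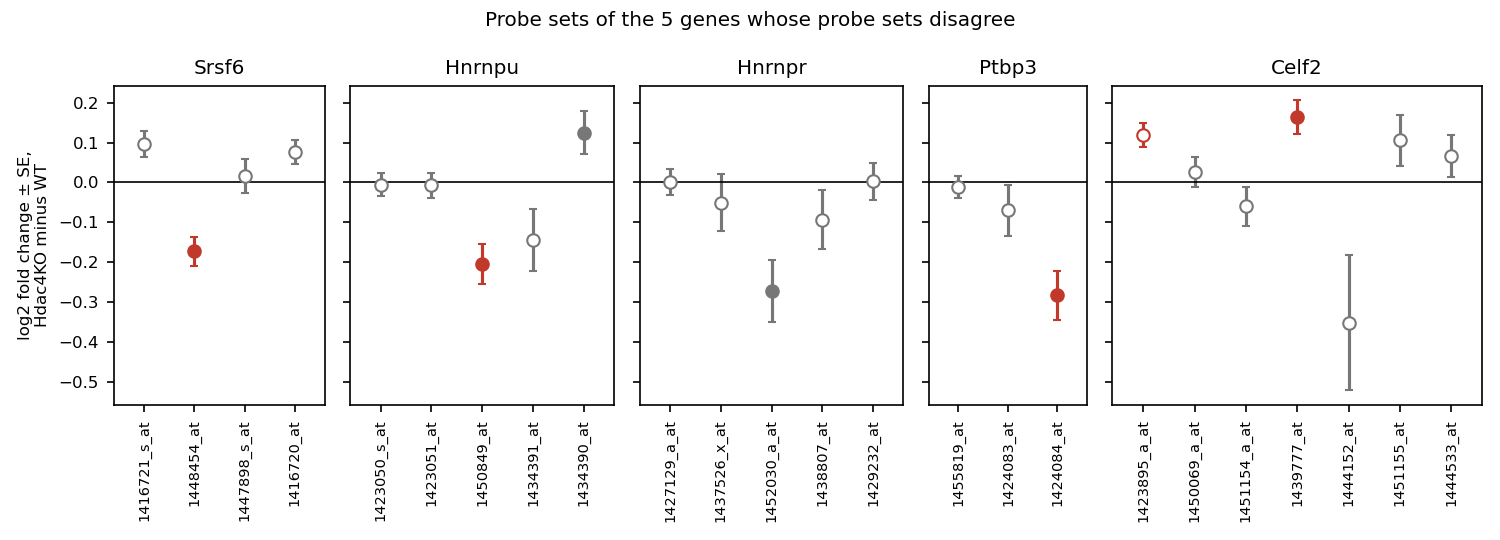
Log2 fold change (Hdac4KO minus WT) with its standard error for every probe set of the 5 genes whose probe sets disagree, ordered from the brightest at left. Red marks called probe sets and filled points those that differ from the gene's other probe sets; in Srsf6 the called probe set lies below 0 and the other 3 above.

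**Figure D4:**
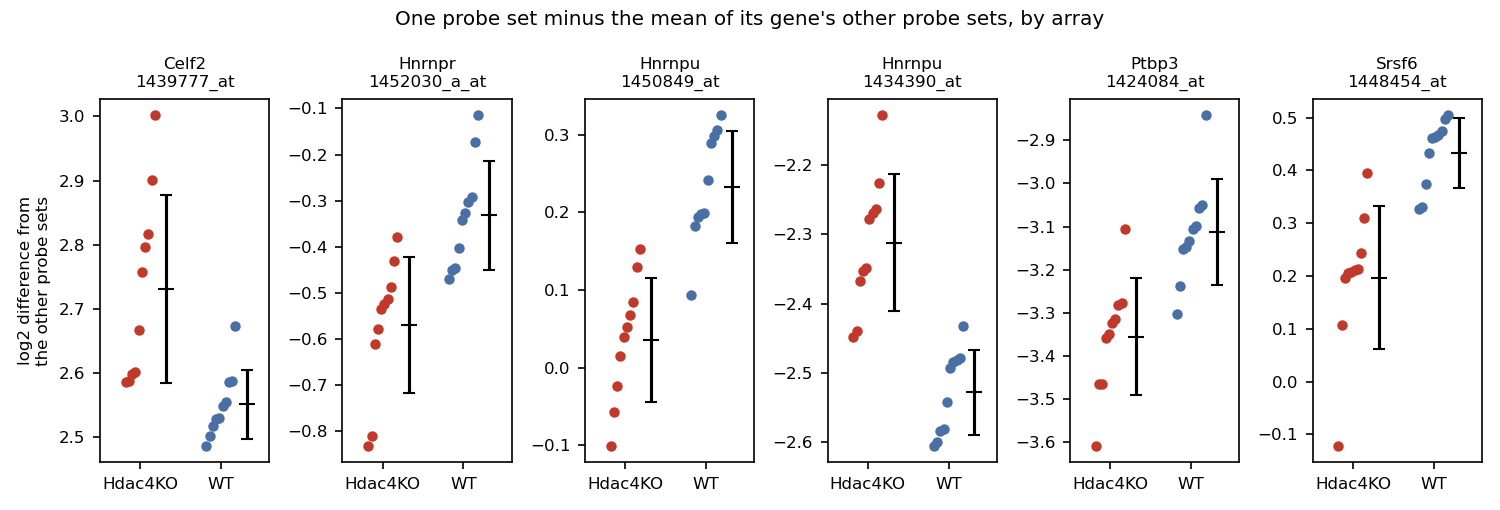
Difference between 1 probe set and the mean of its gene's other probe sets on the same array, in log2 units, with 1 point per array, Hdac4KO left and WT right, and mean ± SD (n = 10 each). The 2 Hnrnpu panels move in opposite directions.

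Names of the probe sets carry the array maker's type. Plain _at probe sets, which target 1 transcript, numbered 102 and held 4 of the 5 calls. The 32 of the _a_at type, shared by splice forms of a gene, held 1, and the 14 _s_at and 12 _x_at probe sets, which can match related sequences, held none. Below 0 were 51 of the 102 _at, 22 of the 32 _a_at, 8 of the 14 _s_at and 11 of the 12 _x_at probe sets. The same split over all probe sets of the array was not made. Signal from paralogs and pseudogenes of Hnrnp and Srsf genes in _s_at and _x_at probe sets cannot be told apart here. The exons that each probe set covers were not looked up here.

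By family, the mean over probe sets relative to WT was lower in Hdac4KO arrays for Srsf, from -0.15 to 0.03, against -0.09 to 0.05 in WT arrays. It was lower for Ptbp too, from -0.09 to 0.01, against -0.06 to 0.06 in WT arrays. Medians over Hdac4KO and WT arrays were -0.05 and 0.01 for Srsf, -0.06 and 0.01 for Ptbp, and -0.02 and 0.02 for Hnrnp. Rbfox was higher, from -0.01 to 0.13, against -0.05 to 0.06 in WT arrays. Hdac4KO arrays spread wider than WT arrays for Elavl, from -0.11 to 0.05, against -0.02 to 0.03. The standard deviation was larger in Hdac4KO brains for 69.4% of members, beside 60.5% of all probe sets. No family separated the genotypes.

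**Figure D5:**
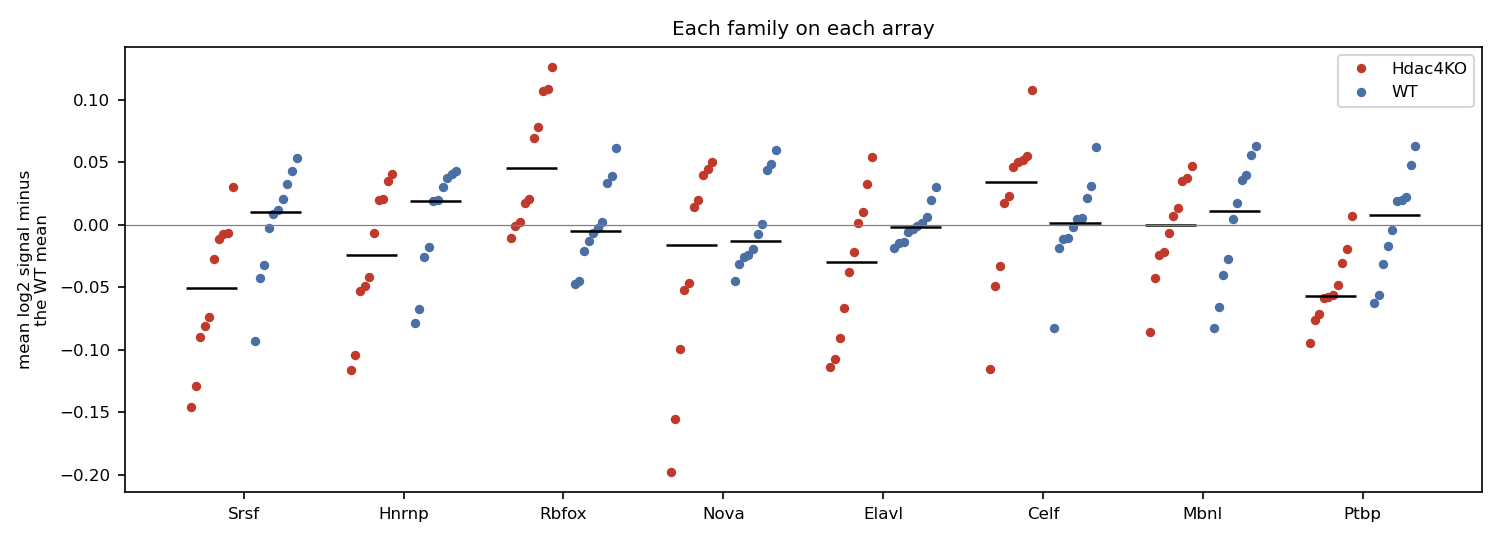
Mean log2 signal of each family's probe sets on each array minus the WT mean, 1 point per array, Hdac4KO left (red) and WT right (blue), with bars at the medians. The Srsf points of Hdac4KO reach down to -0.15 and the Rbfox points reach up to 0.13, and the genotypes overlap in every family.

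The effect of genotype did not differ between the labelled sexes in any member at a limma adjusted p under 0.05, and no probe set of the array did (0% of all). The 3 arrays whose Xist signal ran against the labelled sex were kept in this fit, which limits what it can show. At an unadjusted p under 0.05, 3 members did, beside 5.35% of all probe sets. The lowest adjusted p among members was 0.917.

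Neighbouring lists of splicing genes were read at each gene's brightest probe set. Over all probe sets on the array, 1.05% were called higher and 1.01% lower. Of 44 core spliceosome genes measured, 2 rose and none fell: Prpf40b, a U1 snRNP-associated factor, averaged 8.81 ± 0.071 in Hdac4KO brains and 8.62 ± 0.079 in WT brains (log2 fold change 0.19, adjusted p = 0.0162), and Snrpb, a core Sm protein, rose by 0.23 (adjusted p = 0.0323). The list's median was 0.00575. Slu7 and Snrnp70 differed by -0.10 and 0.12 (adjusted p = 0.0920 and 0.106).

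Among 24 SR protein kinases and SR-related regulators, none was called, and the median was 0.02. Srrm4 (nSR100), which drives neuronal microexons, differed by 0.17 (adjusted p = 0.0844), and Tra2a, a splicing activator, by -0.21 (adjusted p = 0.113). Scaf1 and Tra2b differed by 0.16 and -0.07. Of 47 other RNA-binding regulators, 1 rose and none fell: Cirbp, the cold-inducible RNA-binding protein, averaged 11.0 ± 0.11 in Hdac4KO brains and 10.8 ± 0.032 in WT brains, a rise of 0.20 (adjusted p = 0.0146). Over all probe sets of these lists, 4 of 114 rose and 1 fell for the core spliceosome, 1 of 91 rose and 1 fell for the SR-related genes, and 1 of 166 rose and 1 fell for the other regulators.

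Other cell types were looked at beside these results. Of 4 choroid plexus and ependyma markers, Ttr fell by 0.14 on the log2 scale (adjusted p = 0.0420) and all 4 were below 0, and their summed signal ran from 15800 to 18400 in Hdac4KO arrays, against 17300 to 20200 in WT arrays. The 6 microglial markers had a median of 0.14 with none called and 1 below 0. Of these, 3 had an unadjusted limma p under 0.05, all above 0 (C1qa 0.00238, Ctss 0.00809, Csf1r 0.015). Their summed signal ran from 2310 to 3220 in Hdac4KO arrays, against 2380 to 2900 in WT arrays. At their brightest probe sets no gene of the other marker lists was called. The part of these markers in the results was not tested.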

How the data were processed

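RNA of whole P3 brains was labelled with a 3′ kit and hybridized to Affymetrix mouse genome arrays, and the authors excluded chips on quality control. The authors deposited log2 signals, 1 per probe set and array; how they were summarised and normalized was not given in the sources used here. Array medians lie between 6.26 and 6.32, and precision is limited by how many arrays there are. The 64 control probe sets were left out.

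Genotypes were compared with limma 3.58.1 in R 4.3.3 without covariates, with Benjamini-Hochberg adjustment over all 45037 probe sets and a threshold of 0.05. Differences between probe sets of 1 gene were tested in the same way. Tables were made with pandas 2.3.3. Scripts were tested on simulated data. Alternatives were the methods' t-test, covariates, other normalizations, filters and arrays left out.

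Named were called probe sets and their genes' others, disagreeing genes, the brightest probe set of each gene in the small families, 3 Srsf and 3 Hnrnp genes per side, the largest uncalled changes, and 4 genes per list. Any other gene was named with its values already seen. The members and lists were chosen with earlier results of these data known.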

Additional observations from a re-analysis of the deposited data

Results flagged for a closer look

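Of 30 groups of 10 arrays looked at for a sample far from the others, 2 held one, where chance alone would flag about 1 in 20. Nova2 (1439192_at) in Hdac4KO replicate 10 was 9.25, with the nearest Hdac4KO array at 9.41. Nova1 (1426938_at) in WT replicate 1 was 9.89, with the nearest WT array at 10.08.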

How the results depend on the processing

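Probe sets that rose numbered 2 in the fit reported, 0 with the 3′ to 5′ covariate, 0 with the replicate block and 1 after quantile normalization. They numbered 0 without the 2 arrays whose Hdac4 signal lay between the genotypes and 0 without the 3 arrays against their sex label. The methods' t-test called 6 members. These were the 5 of the fit reported and Hnrnpul2 1434551_at, which rose (t-test adjusted p = 0.0313). Probe sets that fell numbered 3 in the fit reported, 0 with the 3′ to 5′ covariate, 5 with the replicate block, 7 without dim probe sets, 5 with trended robust eBayes and 8 with array weights. Disagreeing genes numbered 5 in the fit reported and 1 with the 3′ to 5′ covariate, where the change was -0.24 for Srsf6, -0.17 for Hnrnpr, -0.21 for Ptbp3 and 0.17 for Celf2, and Hnrnpu still passed. Leaving out 1 array gave 0 to 3 that rose, 2 to 5 that fell, 3 to 7 disagreeing genes and 0 differing between the sexes; 5 fell without WT replicate 9 or Hdac4KO replicate 1, and 3 genes disagreed without WT replicate 2 or Hdac4KO replicates 8 or 9. The cause was not tested. The replicate numbers do not pair the samples (correlations of same-numbered deviations from -0.149 to 0.162, 1 of 10 above 0.1, none of the arrays best with its own number); over all probe sets the block gave 308 higher and 640 lower, against 474 and 453.

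Signs turned only in differences near 0. Hnrnpr 1427129_a_at lay at -5.76e-05 after median centring, -0.0036 with array weights and -0.000125 without the 2 arrays, and Hnrnpr 1429232_at at -0.0062 with the 3′ to 5′ covariate, -0.0064 after quantile normalization, -0.018 with array weights, -0.012 and -0.0124 without the 2 and the 3 arrays. Elavl1 1452858_at lay at -0.0115 after quantile normalization and -0.0056 with array weights. Over the 20 fits without 1 array, ranges that crossed 0 were -0.0146 to 0.0057 and -0.0203 to 0.0042 for Hnrnpu 1423050_s_at and 1423051_at, -0.0141 to 0.0152 and -0.0188 to 0.0221 for Hnrnpr 1427129_a_at and 1429232_at, -0.0153 to 0.0131 for Ptbp2 1423470_at, -0.0013 to 0.0304 for Ptbp1 1424874_a_at, -0.0035 to 0.0317 for Celf4 1426929_at, -0.0036 to 0.0349 for Srsf6 1447898_s_at and -0.0168 to 0.01 for Elavl1 1452858_at. Of 1699 values of named probe sets under the alternatives, 1585 kept sign and side of the threshold, 57 no longer passed, 10 newly passed and 47 turned. Low signal limits Ptbp3 1424084_at and the Mbnl3 probe sets.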
